A study of Mus musculus with 6 samples.

Results

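Some genes of the induced cells stood outside both cultures they were set beside, above or below the fibroblasts they came from and also above or below the testis cells they were meant to resemble. These genes are described here. A gene was kept when its log2 CPM (estimated reads of a gene per 1 M reads of the library) in both libraries of the induced cells lay above, or below, all 4 libraries of the other cultures, and its distance was read from the induced cells minus the mean of the other groups. Of 18305 genes in the tables, 14581 had enough reads to be tested, and 5502 of these were outside: 2909 above both and 2593 below both.

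The cells came from KM mice. MEF are embryonic fibroblasts prepared at 12.5 or 13.5 days post coitum and cultured for 3 to 5 passages. CiLC are fibroblasts of the same source and passages that were given small molecule compounds 24 h after seeding into plates. The labels do not name the compounds, their doses or the length of treatment, and MEF are not labelled as having had a vehicle. LC are Leydig cells, the androgen-making cells that lie between the tubules of the testis, cultured from testis tissue for 0 to 1 passages. Age of the testis donors and purity of the cultures are not in the labels. Each group had 2 libraries. Nothing in the labels states separate animals or cultures within a group, and p-values therefore cover just the variation among these libraries, which may be technical. The study asked whether CiLC resemble LC in their genome-wide profile, and the genes kept here are those where CiLC lay outside both in level. For many of them the distance from the nearer group was less than 2-fold.

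Libraries held 18.4 to 18.9 M estimated reads, with 16441 to 16631 genes above 0. Defining Leydig markers summed to 144 to 148 CPM in CiLC, 7.55 to 9.40 CPM in MEF and 1081 to 1108 CPM in LC, and none of the 5 that were tested was called above or below both groups in CiLC. Reads of Lhcgr, which encodes the gonadotropin receptor of these cells, numbered 0 in both CiLC libraries and 3 and 2 in LC, and Cyp17a1, needed for androgens, had at most 1 read in any library. Markers of other cells were present in LC too. Sertoli cell markers summed to 2121 to 2129 CPM there, of which all but 183 to 185 CPM was Clu, and macrophage markers, with 12 of 12 above 1 CPM in every group, to 3789 to 4123 CPM in LC, 8091 to 8172 CPM in MEF and 11230 to 11450 CPM in CiLC. Lyz2 set that order: without it, a sum chosen after the values were seen, macrophage markers were at 3751 to 3792 CPM in CiLC, 5460 to 5485 CPM in MEF and 1389 to 1415 CPM in LC, and 7 of the 11 were lower in both CiLC libraries than in MEF, against 3 higher.

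Hedgehog and Wnt are secreted signals that cells read through membrane receptors. Each pathway turns on some of its own brakes, among them Hhip, which binds hedgehog ligands, and Wif1, which binds Wnt proteins. In the testis, hedgehog protein from Sertoli cells is known for promoting the Leydig fate. Contractile genes such as Acta2, Tagln and Myh11 mark smooth muscle and the peritubular cells of the testis, and cultured fibroblasts switch many of them on. Simple keratins and proteins such as mesothelin mark the mesothelium, the epithelium that lines body cavities and covers organs.

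Promoter windows of a few members are shown because they hold the letters of a binding site class. These are the cyclic AMP response element, bound by CREB, in 3 genes above both, and a CArG box, bound by serum response factor, in a contractile gene below both. Of the 3 genes, Dio2 is in the list of cyclic AMP targets below, and Hhip and Scg2 are not. The sequences are from RefSeq, assembly GRCm38.p6, each 100 bases 5′ to 3′ on the gene's strand, with the motif in capitals. Hhip lies on the minus strand at chr8:80058030-80058129, Dio2 on the minus strand at chr12:90739080-90739179, Scg2 on the minus strand at chr1:79440041-79440140 and Myl9 on the plus strand at chr2:156775258-156775357.
Hhip: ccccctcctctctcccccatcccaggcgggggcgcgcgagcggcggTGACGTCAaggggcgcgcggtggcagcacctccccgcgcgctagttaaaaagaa
Dio2: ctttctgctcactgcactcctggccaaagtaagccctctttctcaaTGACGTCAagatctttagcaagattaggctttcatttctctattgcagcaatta
Scg2: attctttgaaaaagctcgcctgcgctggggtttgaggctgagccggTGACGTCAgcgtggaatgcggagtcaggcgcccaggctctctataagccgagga
Myl9: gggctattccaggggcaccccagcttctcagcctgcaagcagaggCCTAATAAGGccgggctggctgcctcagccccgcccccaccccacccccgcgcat

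The element begins 75 bases before the start in Hhip, 95 in Dio2, 68 in Scg2 and 161 in Myl9. In the 250 bases before the start, read on both strands, TGACGTCA was found in 5 of the 293 genes that lay at least 2-fold above both and had a promoter in the table (1.71%: Dio2, Hhip, Pcsk1, Scg2 and Syn1), in 4 of 240 genes at least 2-fold below (1.67%) and in 325 of 11483 tested genes (2.83%). The GLI site GACCACCCA was in none of the 293 or 240 genes and in 26 of all (0.226%), and the NR5A1 site TCAAGGTCA was in 0, 1 and 37 genes (0.322% of all). A CArG box was in 7 genes at least 2-fold below (2.92%: Dmd, Fhl2, Gstp2, Ldb3, Myl9, Rap1gap2 and Stbd1), in 5 at least 2-fold above (1.71%) and in 165 of all (1.44%). The CArG search was added after the values were seen. A match is a description of letters in a window and not a bound site.

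Of the 2909 genes above both (20.0% of those tested), 1886 also passed the test against each group at an adjusted p of 0.05 (12.9%), and 395 did so with at least a 2-fold difference from each (2.71%). Of the 2593 genes below both (17.8%), 1598 passed against each group (11.0%), 323 of them by at least 2-fold (2.22%). Of all genes tested, 228 passed the filter on low reads only with the CiLC libraries counted, and 107 of these were among the 1886. For such genes the filter itself favoured a place above. The tests were edgeR's quasi-likelihood tests with Benjamini-Hochberg adjustment over all genes tested. Since the members were chosen on the same values, the counts and p-values describe them and do not test the choice. CiLC minus MEF and CiLC minus LC also share the CiLC libraries, so the values of both are given side by side for many genes. For other members mostly the difference from the nearer group is given. Against MEF alone, 26.1% of genes tested were called higher in CiLC and 25.5% lower, against LC alone 35.0% and 35.6%, and between MEF and LC 35.0% were higher in MEF and 35.7% lower. The rule gave 6352 genes for MEF and 9707 for LC when each was taken as the group outside the others, with 468 above and 493 below by 2-fold for MEF and 1612 and 1213 for LC, so CiLC had the fewest of the 3 groups.

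The split between directions depended on scaling. Of the genes outside, 52.9% were above with the trimmed mean of M values and 72.8% with library totals, which raised the median gene in CiLC by 0.21 against LC and 0.07 against MEF on the log2 scale. Of the genes called in CiLC minus the mean of the other groups, 4377 were higher (30.0% of genes tested) and 4333 lower (29.7%), so 50.2% of calls were higher with the trimmed mean against 68.9% with library totals. The spread between libraries was small, with a common biological coefficient of variation of 3.16%. Where a coefficient of 0.4 was assumed in its place, 185 genes were called above both and 93 below both.

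Among the 395 genes at least 2-fold above both, MEF was the nearer group for 263 and LC for 124, with 8 at equal distance. The median distance from the nearer group was 1.83 on the log2 scale, 180 genes lay at least 4-fold above both and 88 at least 8-fold. Among the 323 genes at least 2-fold below both, MEF was nearer for 213 and LC for 110, the median distance was -1.55, and 92 lay at least 4-fold and 32 at least 8-fold below. MEF and LC were within 2-fold of each other for 165 of the genes above (41.8%) and 185 of those below (57.3%), against 72.2% of all genes tested. For 104 of the genes above and 15 of those below, a group held no more than 3 reads in its libraries together, so their fitted fold changes depend on the prior count. At the edge of the rule, the unnamed transcript E130311K13Rik was just inside with 7.53 and 7.59 CPM in CiLC against up to 7.53 CPM in LC, and the membrane fusion gene Stx3 was just outside with 40.0 and 43.7 CPM in CiLC against up to 40.0 CPM in MEF. On the lower side, the sphingomyelinase gene Smpd2 was just inside with 13.8 CPM in each CiLC library against at least 13.8 CPM elsewhere, and the water channel gene Aqp2 was just outside because CiLC and MEF both had 0 reads.

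**Figure D1:**
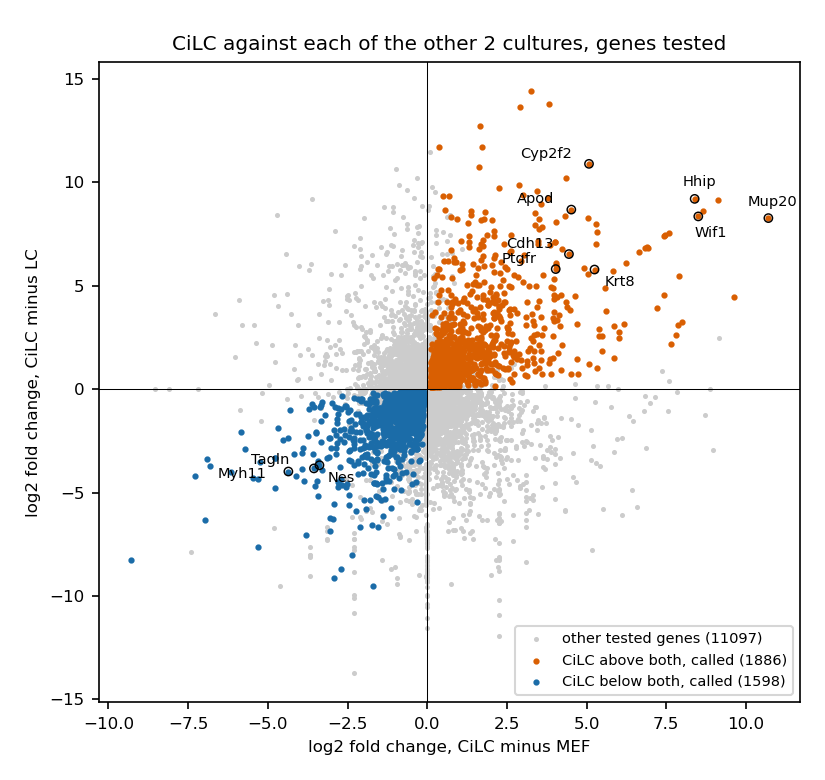
Each point is a tested gene, with the fitted log2 fold change of CiLC minus MEF on the horizontal axis and of CiLC minus LC on the vertical axis. Orange points (1886 genes) are above both and called against each group, blue points (1598) below both and called, grey points the other 11097, and named genes are ringed. Hhip and Wif1 lie toward the upper right, while points with a group near 0 reads, such as Mup20, take their place partly from the prior count.

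The 6 genes proposed as marks of this state were chosen for their pattern, and their values are a description. Hhip (NCBI gene 15245), the decoy receptor of hedgehog ligands, was at 131 and 118 CPM in the CiLC libraries, 0.629 and 0.104 CPM in MEF and 0.290 and 0.118 CPM in LC. Both CiLC libraries were high and the other 4 near the floor of detection. The log2 difference was 8.39 ± 0.46 (SE) from MEF and 9.21 ± 0.64 from LC. The value against MEF rested on few reads, 12 and 2, and was 10.13 without MEF replicate 1 and 7.62 without MEF replicate 2. Wif1 (24117), the Wnt inhibitor, had 458 and 383 reads in CiLC, 0 and 2 in MEF and 1 and 1 in LC. By counts this is 409 times the MEF level (95% counting interval 113 to 3382) and 366 times the LC level (101 to 3024).

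Cyp2f2 (13107) encodes a cytochrome P450 known from the airway's club cells, where it oxidises foreign compounds. It was at 559 and 579 CPM in CiLC, 16.4 and 17.4 CPM in MEF and 0.116 and 0.471 CPM in LC, which was 33.7-fold above MEF (log2 5.07 ± 0.07). Apod (11815), a small lipid carrier, was at 528 and 536 CPM in CiLC, 23.1 and 23.3 CPM in MEF and 1.25 and 1.30 CPM in LC. In both genes MEF stood between the other groups, and the ranges of the 3 groups were apart. Ptgfr (19220), the receptor for prostaglandin F, was at 82.0 and 79.5 CPM in CiLC, 5.26 and 4.65 CPM in MEF and 1.42 and 1.44 CPM in LC. Cdh13 (12554), a cadherin without a cytoplasmic tail, was at 80.4 and 78.0 CPM in CiLC, 3.67 and 3.59 CPM in MEF and 0.638 and 1.06 CPM in LC. Ptgfr and Cdh13 were 16.3-fold and 21.8-fold above MEF and followed the same order, CiLC above MEF above LC.

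The 12 genes farthest above both, with a CiLC mean of at least 5 CPM, included 4 of these marks: Hhip, Wif1, Cyp2f2 and Apod. Mup20 (381530), a major urinary protein that carries pheromones, had 224 and 214 estimated reads in CiLC, 0 in both MEF libraries and 0 and 1 in LC. Against the floor of 3 reads in MEF it was at least 142-fold higher. It has near-identical copies beside it in the genome, and its reads may be split between them. Cntn1 (12805), an adhesion protein of nerve cells, was at 16.7 CPM in each CiLC library, 0.524 and 0.313 CPM in MEF and 0.0661 and 0.0877 CPM in LC. Vstm2a (211739), a secreted protein of preadipocytes, was at 29.8 and 26.7 CPM in CiLC, 0.0524 and 0.260 CPM in MEF and 1.39 and 1.00 CPM in LC, with LC nearer than MEF. Vat1l (270097) was at 20.2 and 20.1 CPM in CiLC and at most 0.780 CPM elsewhere.

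Trp63 (22061), the p53 relative that maintains stratified epithelium, was at 8.04 and 8.82 CPM in CiLC, 0.0524 and 0.364 CPM in MEF and 0 and 0.118 CPM in LC. MEF replicate 2 held most of the MEF reads, 7 against 1, and the log2 difference of 5.29 from MEF became 7.16 without it and 4.50 without MEF replicate 1. Dio2 (13371), the deiodinase that makes active thyroid hormone, was at 19.3 and 19.0 CPM in CiLC, 0.367 and 0.884 CPM in MEF and 0.232 and 0.412 CPM in LC. Its log2 difference of 4.92 from MEF was 5.68 without MEF replicate 2. Cxcl13 (55985), a chemokine that attracts B cells, had 98 and 109 reads in CiLC, 0 in MEF and 5 and 3 in LC, at least 67.1-fold above MEF and 21.9-fold above LC. In each of these genes the low groups were near 0 and the CiLC libraries lay close to each other.

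**Figure D2:**
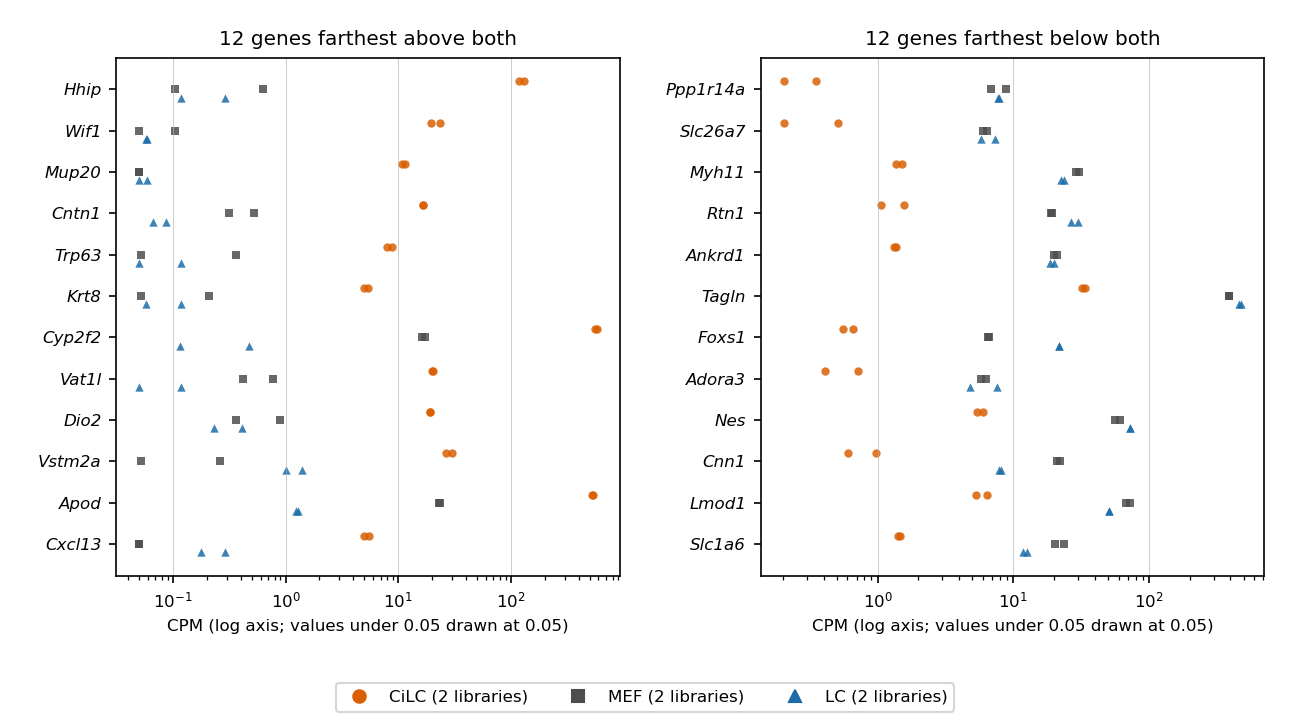
CPM per library on a log axis for the 12 genes farthest above both groups (left) and the 12 farthest below both (right), ordered by distance from the nearer group. Each point is a library, orange circles CiLC, grey squares MEF and blue triangles LC. On the left MEF and LC lie mostly under 1 CPM, and on the right the CiLC libraries lie under 2 CPM for 9 of 12 genes.

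Genes of simple epithelium and mesothelium were the list with the largest share above both. Of 20 genes listed, 19 were in the tables and 12 were tested, and 9 of the 12 (75%) were above both and called, each by at least 2-fold, against 12.9% of all genes called above and 2.71% by 2-fold. Of the 9, Krt8 passed the filter on low reads only with the CiLC libraries counted. The median log2 difference from the mean of MEF and LC was 3.91, against 0.00145 over all genes. Krt8 (16691) and Krt18, the keratin pair of simple epithelia, differed in depth. Krt8 had 107 and 98 reads in CiLC, 1 and 4 in MEF and 1 and 2 in LC, and its log2 difference from MEF of 5.25 was 4.60 without MEF replicate 1 and 6.46 without MEF replicate 2. Krt18 was at 20.4 and 19.0 CPM in CiLC, 0.891 and 0.884 CPM in MEF and 1.45 and 1.29 CPM in LC. In both keratins MEF and LC were alike beside the gap to CiLC.

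Krt7 was at 19.1 and 16.8 CPM in CiLC, 1.83 and 1.20 CPM in MEF and at most 0.058 CPM in LC. Msln, the mesothelin gene, was at 37.6 and 37.2 CPM in CiLC, 3.77 and 4.79 CPM in MEF and 2.43 and 1.53 CPM in LC. Upk3b and Upk1b, uroplakins that mesothelium shares with the bladder lining, were 11.2-fold and 7.95-fold above MEF and nearly at 0 in LC. Lrrn4, a further mesothelial gene, was 3.33-fold above MEF, Cldn1, a tight junction protein, 2.92-fold, and Krt19 2.19-fold, although Krt19 was not called against MEF with quantile normalization. MEF exceeded LC in Krt7, the uroplakins, Lrrn4, Cldn1 and Krt19.

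The tested members that were not called above both were Epcam, Cldn4 and Muc1, which was at 3.36 and 4.16 CPM in CiLC, below LC, and did not pass against MEF (adjusted p = 0.0803 by edgeR's test). Muc16, the mesothelial mucin, is outside the list and was at 11.8 and 9.88 CPM in CiLC, 1.10 and 0.780 CPM in MEF and 0 and 0.0588 CPM in LC. Cdh1, E-cadherin, is also outside the list and went the other way, below both, with values given among the adhesion genes. Wt1, a factor of mesothelium and of Sertoli cells, was at 20.0 and 16.9 CPM in CiLC and at 122 and 124 CPM in LC, so it was not among the genes outside. In bulk RNA, more cells of a type and more RNA of these genes per cell cannot be told apart. With the coefficient of variation of 0.4 assumed, 6 were called above both.

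Contractile genes were the list with the largest share below both. All 16 listed genes were tested, and 14 (87.5%) were below both and called, 9 of them by at least 2-fold, against 11.0% and 2.22% of all genes. The median log2 difference was -1.96. Myh11 (17880), the smooth muscle myosin heavy chain, was at 1.37 and 1.52 CPM in CiLC, 30.4 and 29.0 CPM in MEF and 22.3 and 23.5 CPM in LC. Tagln (21345), an actin-bundling protein, was at 33.7 and 32.4 CPM in CiLC, 388 CPM in each MEF library and 481 and 459 CPM in LC. Cnn1, calponin, was at 0.967 and 0.608 CPM in CiLC, 22.2 and 21.2 CPM in MEF and 8.17 and 7.83 CPM in LC. In each, both CiLC libraries were low and MEF and LC lay within 3-fold of each other.

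Acta2, smooth muscle actin, was at 98.3 and 103 CPM in CiLC, 1168 and 1091 CPM in MEF and 424 and 430 CPM in LC, 11.2-fold and 4.24-fold lower in CiLC. Lmod1, which starts actin filaments, differed by -3.58 from MEF and -3.12 from LC on the log2 scale, and Myl9, the regulatory myosin light chain, was 8.38-fold below MEF and 9.58-fold below LC. Mylk, the kinase of that light chain, was at 43.1 and 42.9 CPM in CiLC, 146 and 148 CPM in MEF and 727 and 741 CPM in LC, so here LC was far above MEF. Smaller differences were found in the tropomyosins Tpm1 (2.58-fold below MEF) and Tpm2 (2.34-fold), and in Cald1 (1.99-fold), Smtn (1.71-fold), Hspb6 (1.68-fold) and Des (1.53-fold). Actg2 was 13.2-fold below MEF and 1.91-fold below LC. Synpo2 and Itga8 were the 2 exceptions. Itga8, an integrin chain, was at 25.2 and 25.0 CPM in CiLC between 122 and 108 CPM in MEF and 6.38 and 7.47 CPM in LC.

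These genes overlap with the markers of peritubular cells, of which 4 of 4 (Acta2, Cnn1, Des and Myh11) were below both and called. They summed to 108 to 112 CPM in CiLC, 1153 to 1230 CPM in MEF and 483 to 490 CPM in LC, with none at 0. Whether the share of such cells differed was not tested. The count of 14 was the same with library totals, DESeq2 and quantile normalization, and it was 6 with the coefficient of variation of 0.4 assumed.

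**Figure D3:**
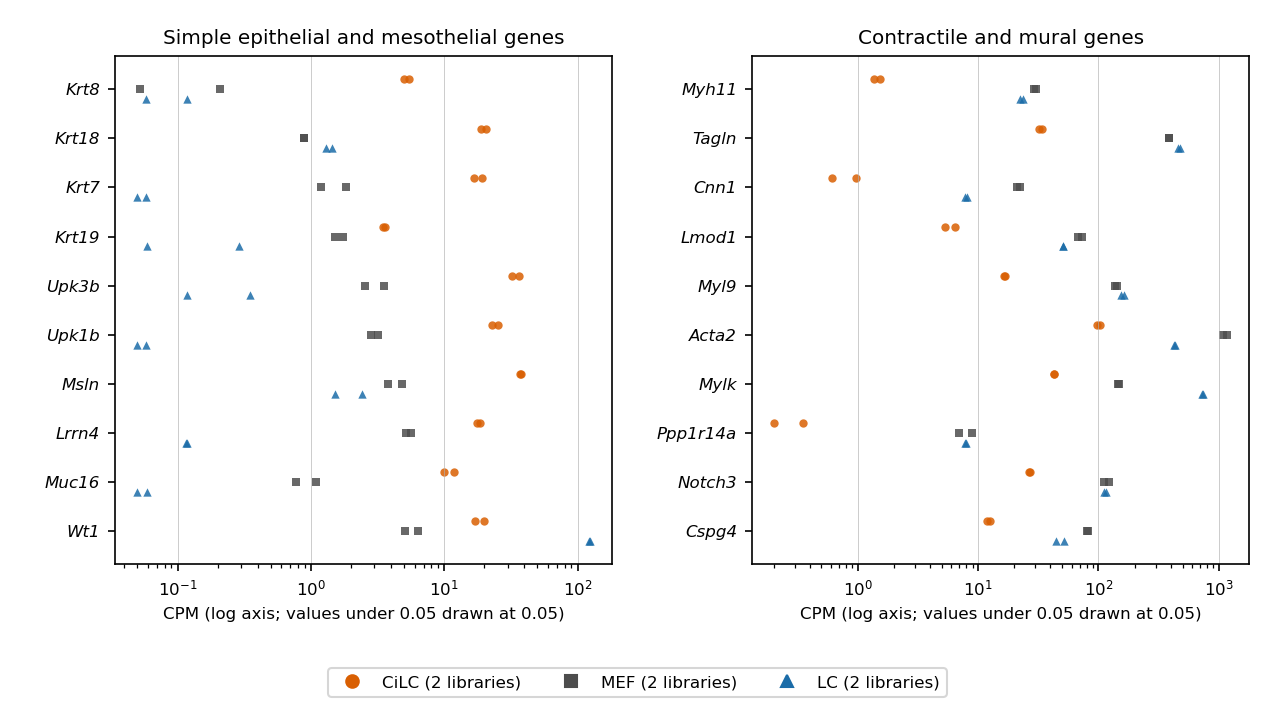
CPM per library on a log axis for 10 simple epithelial and mesothelial genes (left) and 10 contractile and mural genes (right), with orange circles for CiLC, grey squares for MEF and blue triangles for LC, 2 libraries each. CiLC points lie to the right of both groups on the left panel, except for Wt1, where LC is highest, and to the left of both groups for every gene on the right panel.

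Of the 12 genes farthest below both, with MEF and LC means of at least 5 CPM, Myh11, Tagln, Cnn1 and Lmod1 were of this list, and Ppp1r14a (68458), which blocks the phosphatase of myosin, was the farthest. Ppp1r14a was at 0.203 and 0.355 CPM in CiLC, 8.86 and 6.92 CPM in MEF and 7.88 and 7.77 CPM in LC, with MEF and LC overlapping. Ankrd1 (107765), a target of the YAP coactivator and a protein of muscle, was at 1.37 and 1.32 CPM in CiLC, 21.0 and 20.1 CPM in MEF and 20.1 and 18.5 CPM in LC. Ccn2, a secreted protein under the same coactivator, was 5.52-fold below MEF and 4.98-fold below LC. Foxs1 (14239), a forkhead factor of vessel-associated cells, was 10.7-fold below MEF and 35.3-fold below LC.

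Nes (18008), the intermediate filament nestin of progenitor cells, was at 5.95 and 5.42 CPM in CiLC, 56.8 and 61.8 CPM in MEF and 72.9 and 72.6 CPM in LC. Rtn1 (104001), a protein of the endoplasmic reticulum, was 14.5-fold below MEF and 21.5-fold below LC. Adora3 (11542), an adenosine receptor, Slc1a6 (20513), a glutamate transporter, and Slc26a7 (208890), an anion transporter, completed the set. Slc26a7 was at 0.509 and 0.203 CPM in CiLC and at least 5.80 CPM elsewhere, and its log2 difference of -4.11 from MEF became -4.90 without CiLC replicate 1. Over the 24 genes farthest above or below, the largest adjusted p against either group was 7.89e-10, for Adora3 against MEF.

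Of 12 tested pericyte and mural genes, 3 were below both and called (25% against 11.0% of all genes), and 2 above (16.7% against 12.9%). Notch3, a receptor of mural cells, was at 26.9 and 26.5 CPM in CiLC, 111 and 121 CPM in MEF and 112 and 115 CPM in LC, and Cspg4, the NG2 proteoglycan, was 6.60-fold below MEF and 3.90-fold below LC. Angpt1, a vessel-stabilising ligand, was at 32.6 and 35.2 CPM in CiLC, 7.70 and 6.66 CPM in MEF and 1.80 and 2.29 CPM in LC, and Kcnj8, a potassium channel, was 3.15-fold above MEF. The third below was Cox4i2, whose call against MEF (log2 -1.32) was lost without CiLC replicate 2 and whose difference was -2.15 without CiLC replicate 1. Of 13 tested endothelial genes, Kdr, Eng and Emcn were below both and called (23.1% against 11.0% of all genes). Tek and Plvap were above (15.4% against 12.9%), with Tek among those that passed the filter only with CiLC counted. Emcn had under 1.2 CPM in every library and lost its call against LC with library totals, DESeq2 or no filter, and without CiLC replicate 2, MEF replicate 1, LC replicate 1 or LC replicate 2, with an adjusted p of up to 0.252 by edgeR's test. Endothelial markers summed to 9.63 to 9.67 CPM in CiLC, 24.2 to 24.8 CPM in MEF and 69.2 to 77.5 CPM in LC, and their part in these values was not tested.

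Of 22 tested hedgehog pathway genes, 10 were above both and called (45.5% against 12.9% of all genes) and 3 below (13.6% against 11.0%), with a median log2 difference of 0.79. Hhip, among the 10, was chosen for its pattern. It passed the filter on low reads only with the CiLC libraries counted, so the filter favoured a place above. Among receptors and co-receptors, Cdon was at 433 and 414 CPM in CiLC, 129 and 136 CPM in MEF and 53.9 and 61.2 CPM in LC, 3.20-fold above MEF. Boc and Gas1, further co-receptors, were 1.52-fold and 1.61-fold above MEF and 2.04-fold and 1.97-fold above LC. Smo, the signal transducer, was 1.20-fold above MEF and 1.24-fold above LC. Gpc3, a surface proteoglycan that restrains the pathway, was 2.78-fold above MEF and 10.8-fold above LC.

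Among the transcription factors, Gli1 (14632), which is also a direct target and commonly read as pathway output, was at 35.0 and 37.2 CPM in CiLC, 0.629 and 0.364 CPM in MEF and 4.47 and 3.66 CPM in LC. All 3 groups were apart, and CiLC was 71.7-fold above MEF and 8.87-fold above LC. Gli2 was 1.66-fold above MEF and 3.41-fold above LC, and Gli3 1.21-fold and 3.19-fold. Ptch1, a receptor that is also a target, did not share this order. It was at 75.7 and 72.6 CPM in CiLC, 17.7 and 20.3 CPM in MEF and 126 and 141 CPM in LC. CiLC was thus above MEF and below LC in Ptch1, while it was above both in Hhip and Gli1. The ligand gene Dhh, a Sertoli product, had under 8 reads in each CiLC library and 203 to 245 in LC. The genes below both were Disp1 and Scube3, which release and carry the ligand, and Hhat, which modifies it. Disp1 was 1.38-fold below MEF, Scube3 1.48-fold, and Hhat lost its call against MEF with DESeq2 and without CiLC replicate 1 or MEF replicate 2 (adjusted p up to 0.115 without a library by edgeR's test). With the coefficient of variation of 0.4 assumed, 2 of the list's genes were called above both and 0 below.

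Among Wnt genes, 13 of 30 tested were above both and called (43.3% against 12.9%) and 2 below (6.67% against 11.0%), with a median log2 difference of 0.74. Wif1 and Notum, among the 13, passed the filter on low reads only with the CiLC libraries counted, so the filter favoured a place above. Wif1 was also chosen for its pattern. The brakes included Wif1, described above, and Notum, an enzyme that inactivates Wnt proteins, at 3.71 and 4.41 CPM in CiLC, 0.210 and 0.364 CPM in MEF and 0 reads in LC. Apcdd1, a membrane inhibitor, was at 20.6 and 19.2 CPM in CiLC, 2.98-fold above MEF and 4.18-fold above LC. Tnfrsf19, a receptor switched on by Wnt signals in some tissues, was at 11.5 and 13.0 CPM in CiLC, 0.629 and 0.520 CPM in MEF and 0.927 and 0.588 CPM in LC. Rspo1, which amplifies Wnt signals and is known for ovary formation, was at 15.8 and 15.2 CPM in CiLC, 2.93 and 3.59 CPM in MEF and 1.56 and 1.12 CPM in LC.

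Of the ligand genes, Wnt5b was 3.60-fold above MEF and 2.04-fold above LC. Wnt4, known for its part in gonad and kidney formation, was at 8.25 and 8.79 CPM in CiLC, 20.9 and 19.8 CPM in MEF and 52.4 and 49.0 CPM in LC, and Wnt11 was 2.78-fold and 1.87-fold lower. With the coefficient of variation of 0.4 assumed, 4 were called above both.

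Cytochrome P450 genes outside steroid synthesis had 4 of 21 tested members above both (19.0% against 12.9% of all genes) and 1 below (4.76% against 11.0%). Beside Cyp2f2 these included Cyp26b1 (232174), which destroys retinoic acid, at 215 and 216 CPM in CiLC, 37.6 and 37.4 CPM in MEF and 31.8 and 34.7 CPM in LC. Cyp2s1 was 11.3-fold above MEF and 2.06-fold above LC, from levels under 3 CPM. Cyp27a1, the sterol 27-hydroxylase, was the member below both, 3.31-fold under MEF and 4.56-fold under LC. Of 21 tested retinoid genes, 2 were above both (9.52% against 12.9%), Cyp26b1 and the retinoic acid carrier Crabp1 (2.57-fold above MEF, a call lost with quantile normalization). Below both were 2 (9.52% against 11.0%), the retinal reductase Dhrs3 (1.85-fold below MEF) and Rarres1 (3.91-fold).

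Of 24 tested prostaglandin genes, 6 were above both and called (25% against 12.9% of all genes) and 2 below (8.33% against 11.0%). Of these 6, 5 were receptors: Ptgfr, Ptger2, Ptger3, Ptger4 and Ptgdr. Ptger3 was at 7.12 and 6.54 CPM in CiLC, 1.10 and 1.30 CPM in MEF and 0.116 and 0.118 CPM in LC, and Ptger2 and Ptger4, which raise cyclic AMP, were 2.56-fold and 1.29-fold above MEF. Ptgdr was at 1.93 and 2.23 CPM in CiLC and under 1 CPM elsewhere, and lost its call against MEF with quantile normalization. Ptgds, the prostaglandin D synthase, was at 30.4 and 24.3 CPM in CiLC, 0.157 and 0.104 CPM in MEF and 6.43 and 5.71 CPM in LC. Ptgs2, the inducible cyclooxygenase, was at 34.0 and 34.6 CPM in CiLC, 80.4 and 71.7 CPM in MEF and 83.2 and 87.9 CPM in LC, below both, while its relative Ptgs1 at 59.5 and 56.8 CPM was above MEF and did not pass against LC (adjusted p = 0.219 by edgeR's test). Pla2g4a, which frees the substrate, was 1.61-fold below MEF and 1.16-fold below LC, the latter lost with library totals and quantile normalization.

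Of 26 tested cyclic AMP targets, 7 were above both (26.9%) and 9 below (34.6%), against 12.9% and 11.0% of all genes. Dio2, among the 7, passed the filter on low reads only with the CiLC libraries counted, so the filter favoured a place above. The 7 above were 5 phosphodiesterase genes (Pde3b, Pde4b, Pde7b, Pde8b and Pde10a), which break cyclic nucleotides down, with Dio2 and Ppargc1a, a coactivator of mitochondrial genes. Pde7b was at 51.8 and 46.8 CPM in CiLC, 11.0 and 9.19 CPM in MEF and 1.35 and 1.75 CPM in LC, and Ppargc1a was 4.46-fold above MEF and 5.96-fold above LC, from under 4 CPM. Among the 9 below both, Fosb, a subunit of the AP-1 factor, was at 178 and 191 CPM in CiLC, 804 and 832 CPM in MEF and 383 and 454 CPM in LC. Nr4a1, an orphan nuclear receptor, was 2.62-fold and 1.93-fold lower, Rgs2 3.06-fold and 1.56-fold, Sik1 1.49-fold and 1.37-fold, and Junb 1.28-fold and 1.33-fold.

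**Figure D4:**
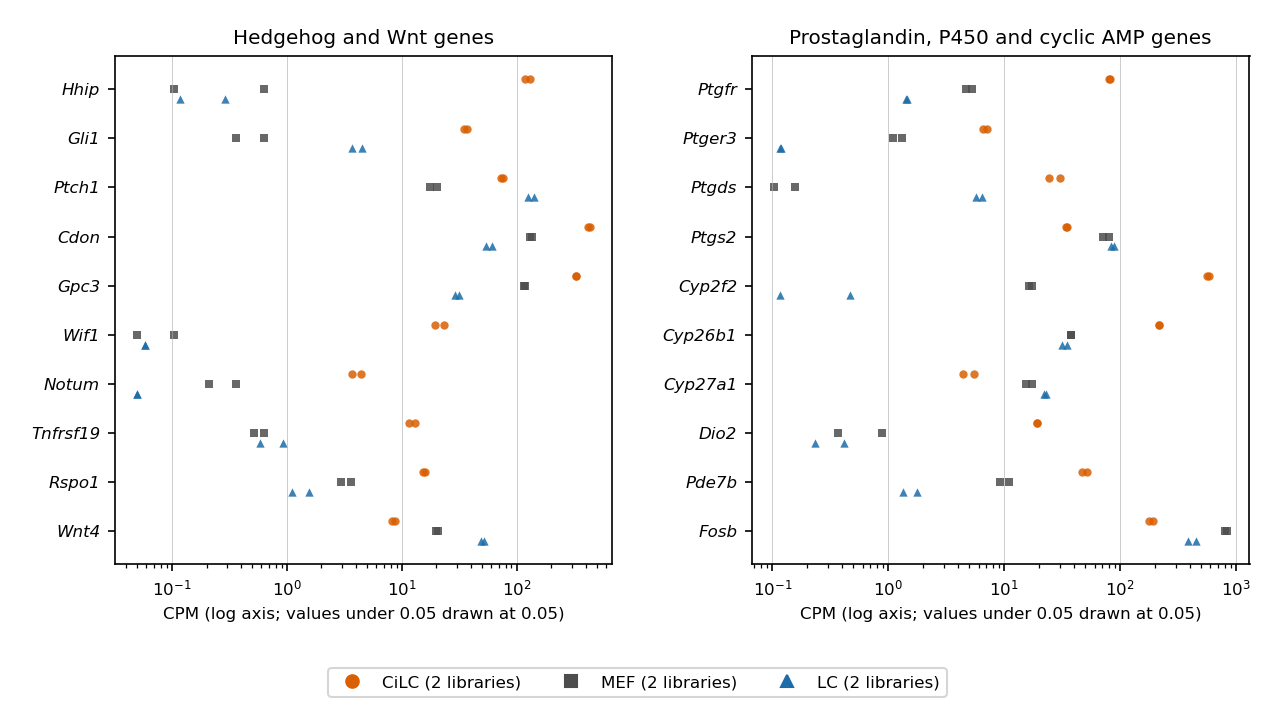
CPM per library on a log axis for 10 hedgehog and Wnt genes (left) and 10 prostaglandin, cytochrome P450 and cyclic AMP genes (right), with orange circles for CiLC, grey squares for MEF and blue triangles for LC, 2 libraries each. CiLC is the highest group for 8 of 10 genes on the left, the exceptions being Ptch1, where LC is highest, and Wnt4, where CiLC is lowest. On the right Ptgs2, Cyp27a1 and Fosb are lowest in CiLC and the other 7 highest.

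Of 34 tested BMP and TGF-beta genes, 7 were above (20.6%) and 11 below (32.4%), against 12.9% and 11.0%. Chrdl1, a BMP antagonist, was at 15.6 and 15.3 CPM in CiLC, 0.996 and 0.989 CPM in MEF and 2.43 and 2.65 CPM in LC. Bmp5 and Bmp7 were 3.60-fold and 3.36-fold above MEF, from under 4 CPM. Bmp5 was nearer to LC, with a log2 difference of 1.73. The activin subunit gene Inhbb was at 133 and 137 CPM in CiLC, 8.28 and 9.89 CPM in MEF and 81.5 and 80.4 CPM in LC. Grem1 and Gdf10 were also above.

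The direct BMP targets Id1, Id2 and Id3 were each below both, 1.30-fold, 1.50-fold and 1.71-fold under MEF and 1.86-fold, 1.93-fold and 1.95-fold under LC. Smad7, a feedback inhibitor, was at 13.1 and 12.4 CPM in CiLC, 24.1 and 22.4 CPM in MEF and 39.2 and 32.9 CPM in LC. Ltbp1, which stores TGF-beta in the matrix, was 2.92-fold and 2.89-fold lower. Tagln and Ccn2 are in this list too, so 2 of the 11 repeat results given above.

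Growth factor families had 12 of 37 tested genes above both (32.4% against 12.9% of all genes) and 4 below (10.8% against 11.0%). Igf1 was at 1132 and 1093 CPM in CiLC, 543 and 505 CPM in MEF and 398 and 422 CPM in LC, and Igfbp5, its binding protein, at 2801 and 2694 CPM in CiLC, 887 and 908 CPM in MEF and 77.4 and 87.3 CPM in LC. Fgf10, Fgf9 and Fgf7 were 2.12-fold, 2.44-fold and 1.99-fold above MEF, and Hgf, a factor that acts on epithelia, 1.50-fold above MEF and 2.05-fold above LC. Fgf7 was nearer to LC, with a log2 difference of 0.496. Fgf5 was 3.38-fold above MEF, a call lost with quantile normalization. Igfbp2 was 2.39-fold below each group, Bdnf, a neurotrophin, 1.50-fold and 1.74-fold below, and Fgf13 6.13-fold and 3.75-fold below. These are ligands and carriers, and receptors among the 12 were Fgfr1, Fgfr2 and Igf2r.

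Lipid genes had 10 of 33 tested members above both (30.3% against 12.9% of all genes) and 2 below (6.06% against 11.0%), with a median log2 difference of -0.00276, close to that of all genes. Lpl, the lipase that frees fatty acids from lipoproteins, was at 1774 and 1766 CPM in CiLC, 198 and 180 CPM in MEF and 438 and 446 CPM in LC, with no overlap between groups. Pparg, the regulator of fat cell genes, was 1.80-fold above MEF and 8.88-fold above LC, and Plin2, which coats lipid droplets, 1.16-fold and 1.68-fold. Apod and Mup20 are also counted here. Apod was chosen for its pattern. Mup20 passed the filter on low reads only with the CiLC libraries counted, so the filter favoured a place above. Apoe was 2.30-fold below MEF and 1.35-fold below LC, a call against LC lost with quantile normalization, and Fabp7, a fatty acid carrier, was 3.16-fold below MEF.

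Of 52 tested matrix genes, 10 were above (19.2%) and 10 below (19.2%), against 12.9% and 11.0%. The lower count was 6 with library totals and 6 with quantile normalization. Col3a1, a fibrillar collagen, was at 11340 and 11500 CPM in CiLC, 4584 and 4581 CPM in MEF and 8497 and 8502 CPM in LC, while Col1a1 was 1.82-fold below MEF and 1.23-fold below LC, the latter not called with library totals. Lum, a leucine-rich proteoglycan, was at 373 and 369 CPM in CiLC, 96.6 and 85.9 CPM in MEF and 6.43 and 5.00 CPM in LC. Col23a1, a transmembrane collagen, was 12.8-fold above MEF and 7.87-fold above LC, and Npnt, an integrin ligand of basement membranes, 11.9-fold and 11.1-fold. Bgn, Mfap5 and Fbln2, of collagen and elastic fibres, were 1.88-fold, 2.06-fold and 2.42-fold below MEF and 2.01-fold, 3.65-fold and 1.72-fold below LC. Tnc, tenascin C, was at 368 and 353 CPM in CiLC, 3588 and 3476 CPM in MEF and 526 and 587 CPM in LC.

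Proteases had 9 of 30 tested genes above both (30% against 12.9% of all genes) and 5 below (16.7% against 11.0%). Mmp9, gelatinase B, was at 364 and 381 CPM in CiLC, 0.996 and 1.93 CPM in MEF and 38.2 and 40.3 CPM in LC. Mmp13, collagenase 3, was 10.8-fold above MEF and 15.7-fold above LC, and Adamts18 was at 7.27 and 5.47 CPM in CiLC, under 1 CPM in MEF and at 0 reads in LC. Plau, the urokinase gene, was 2.70-fold and 1.85-fold below, and Mmp11 and Adamts4 were below both too. Adhesion genes had 3 of 30 above both (10% against 12.9%) and 6 below (20% against 11.0%). Beside Cdh13, Cdh6 was at 5.60 and 5.17 CPM in CiLC and at most 1.72 CPM elsewhere. Itga3, a laminin receptor chain, was 5.44-fold above MEF and nearer to LC, with a log2 difference of 1.63. Cdh2, N-cadherin, was 2.42-fold below MEF and 6.20-fold below LC, Itga6 5.79-fold and 1.75-fold, and Cdh1, E-cadherin, was at 2.19 and 1.74 CPM in CiLC, 21.1 and 19.7 CPM in MEF and 3.30 and 3.85 CPM in LC.

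Macrophage genes were measured because the cultures held their markers in quantity. Of 31 tested genes of identity and state, 10 were above both (32.3% against 12.9% of all genes) and 5 below (16.1% against 11.0%). Retnla, among the 10, passed the filter on low reads only with the CiLC libraries counted, so the filter favoured a place above. Lyz2, lysozyme, was at 7482 and 7654 CPM in CiLC, 2631 and 2687 CPM in MEF and 2707 and 2399 CPM in LC, though its counts may be shared with the near copy Lyz1. Adgre1, the F4/80 antigen, was 2.21-fold above MEF and 2.00-fold above LC, and Mrc1, the mannose receptor, 1.19-fold and 13.3-fold. Gpnmb, a glycoprotein of lipid-laden macrophages, was at 979 and 1031 CPM in CiLC, 180 and 200 CPM in MEF and 41.9 and 38.4 CPM in LC. Retnla, a marker of alternative activation, had 2.54 and 2.79 CPM in CiLC and 0 reads in the other 4 libraries, at least 34.0-fold above MEF and 30.4-fold above LC. Other identity genes did not follow: Csf1r was at 936 and 918 CPM in CiLC under 1265 and 1314 CPM in MEF, Cd68 did not pass against MEF (adjusted p = 0.0507 by edgeR's test), and Cx3cr1 was 7.30-fold below MEF.

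Below both were Spp1, osteopontin, at 3581 and 3534 CPM in CiLC, 7310 and 6634 CPM in MEF and 8611 and 7429 CPM in LC, Arg1, arginase, which was 3.27-fold below MEF and at 496 and 457 CPM in LC, and Clec7a. Chemokine and cytokine genes had 5 of 32 above (15.6% against 12.9% of all genes) and 6 below (18.8% against 11.0%). Cxcl13, among the 5, passed the filter on low reads only with the CiLC libraries counted, so the filter favoured a place above. Beside Cxcl13, Ccl8 was at 31.8 and 32.0 CPM in CiLC, 0.524 and 0.780 CPM in MEF and 2.32 and 2.29 CPM in LC, and Tnfsf11, the osteoclast factor RANKL, was 5.95-fold above MEF. Il1b, Lif and Il1rn were below both, 3.09-fold, 2.38-fold and 2.10-fold under MEF. In the complement list 4 of 19 were above both (21.1% against 12.9%) and none below (0 of 19). Among those above were the inhibitor Cd55, 7.40-fold above MEF and 3.25-fold above LC, Masp1, 5.37-fold above MEF, and Cfp, 3.45-fold. Cfp was nearer to LC, with a log2 difference of 1.31. The summed macrophage markers were highest in CiLC, with 4 of 12 above both and called, but without Lyz2 the sum was 3751 to 3792 CPM in CiLC, under the 5460 to 5485 CPM of MEF, and their part in the values of Lyz2, Gpnmb, Retnla, Cxcl13, Ccl8, Mmp9, Cfp and Spp1 was not tested.

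Gonadal regulators had 8 of 27 tested genes above both (29.6% against 12.9% of all genes) and 4 below (14.8% against 11.0%). Dlk1, a membrane protein of progenitor and fetal Leydig cells, was at 346 and 364 CPM in CiLC, 107 and 113 CPM in MEF and 1.10 and 1.35 CPM in LC. Gata6 was 2.09-fold above MEF and 2.58-fold above LC, and Thbd, thrombomodulin, 3.21-fold and 2.29-fold. Nr5a1, the regulator of steroid genes, was not outside: it was at 69.2 and 68.7 CPM in CiLC, 0.157 and 0.156 CPM in MEF and 164 and 167 CPM in LC. Gata4 likewise lay between, above MEF and below LC. Of 21 tested steroid synthesis genes, 3 were above both (14.3% against 12.9%) and 0 below (against 11.0%). Star, Cyp11a1 and Hsd3b1 were among 8 of the 21 called above MEF and below LC, an order that 1216 of all 14581 genes tested had. Akr1c14, a 3-alpha-hydroxysteroid dehydrogenase, was at 34.2 and 36.5 CPM in CiLC, 0.943 and 0.624 CPM in MEF and 10.6 and 9.30 CPM in LC. Scp2 was 1.25-fold above MEF and 1.26-fold above LC, and Hsd17b4 lost its call against MEF with DESeq2, quantile normalization or no filter, and without any 1 of the CiLC or MEF libraries (adjusted p up to 0.223 without a library by edgeR's test).

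Of 13 tested Sertoli genes, 2 were above both (15.4% against 12.9%), Inhbb and the transporter gene Abcb1b (1.22-fold above MEF). Aard, with 0 and 1 reads in CiLC, was the 1 below (7.69% against 11.0%). It lost its call against MEF with DESeq2 and without CiLC replicate 1 or MEF replicate 1. The log2 difference of Aard from MEF, -2.91, was -5.16 to -2.08 with a library left out. Sertoli markers summed to 107 to 110 CPM in CiLC, 30.5 to 32.6 CPM in MEF and 2121 to 2129 CPM in LC, and without Clu to 26.9 to 30.8, 13.9 to 14.9 and 183 to 185 CPM. Of 14 germ cell genes listed, 12 were in the tables and 4 tested, and Ddx4, the vasa helicase, was above both at 3.05 and 3.35 CPM in CiLC, 0.262 and 0.780 CPM in MEF and 0.232 and 0.294 CPM in LC. It passed the filter on low reads only with CiLC counted, and nothing is read from its count. The germ markers summed to 3.55 to 4.17 CPM in CiLC and 0.673 to 1.05 CPM in MEF, and the log2 difference of Ddx4 from MEF, 2.60, was 3.58 without MEF replicate 2. Of 12 neural and glial genes, 4 were below both (33.3% against 11.0%) and 0 above: Nes, Tubb3, Ncam1 and Ngfr. Tubb3, a tubulin of nerve cells, was 4.73-fold below MEF and 59.9-fold below LC.

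Other lists had few members outside, where 12.9% of all genes were called above both and 11.0% below. Many of their genes were called between MEF and LC. Over all 14581 genes tested, 2456 lay between, 1216 of them above MEF and below LC. Of 23 interferon genes, 0 were above both and 1 below, Oas1a (1.39-fold under MEF), while 15 were called above MEF and below LC. Glycolysis and hypoxia genes had 0 of 27 above and 2 below, the hexokinases Hk1 and Hk2 (1.32-fold and 1.31-fold under MEF), with 17 above MEF and below LC. Sterol synthesis genes had 0 of 24 above and 1 below, with 12 above MEF and below LC. Of 30 replication and mitosis genes, 26 lay between, all of them below MEF and above LC, and 1 was above both, Ccne2. Its call against MEF was lost with DESeq2, quantile normalization or no filter, and without CiLC replicate 1 or MEF replicate 2. The log2 difference of Ccne2 from MEF, 0.437, was 0.234 to 0.612 with a library left out. In the antioxidant list 1 of 23 was above both and 2 below, and 15 lay above MEF and below LC. Of 30 Hox genes, 19 lay between, 5 of them above MEF and below LC. Hoxc10 was above both, a call lost against MEF with DESeq2 and quantile normalization, and without CiLC replicate 1 or MEF replicate 2. The log2 difference of Hoxc10 from MEF, 0.225, was 0.172 to 0.275 with a library left out. Of 10 chondrocyte and osteoblast genes, 0 were called either way.

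Glucocorticoid targets had 2 of 20 above both (10% against 12.9% of all genes) and 5 below (25% against 11.0%). The receptor gene Nr3c1 was 1.47-fold above MEF and 1.31-fold above LC, and Tsc22d3 1.32-fold and 3.07-fold, while Fkbp5 was at 17.4 and 16.7 CPM in CiLC, 30.9 and 33.9 CPM in MEF and 198 and 197 CPM in LC. Of 23 cell cycle inhibitor and p53 genes, 5 were above (21.7% against 12.9%) and 3 below (13.0% against 11.0%), with differences from the nearer group of at most 1.34-fold above, in Cdkn1c, and 2.23-fold below, in Gdf15.

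**Figure D5:**
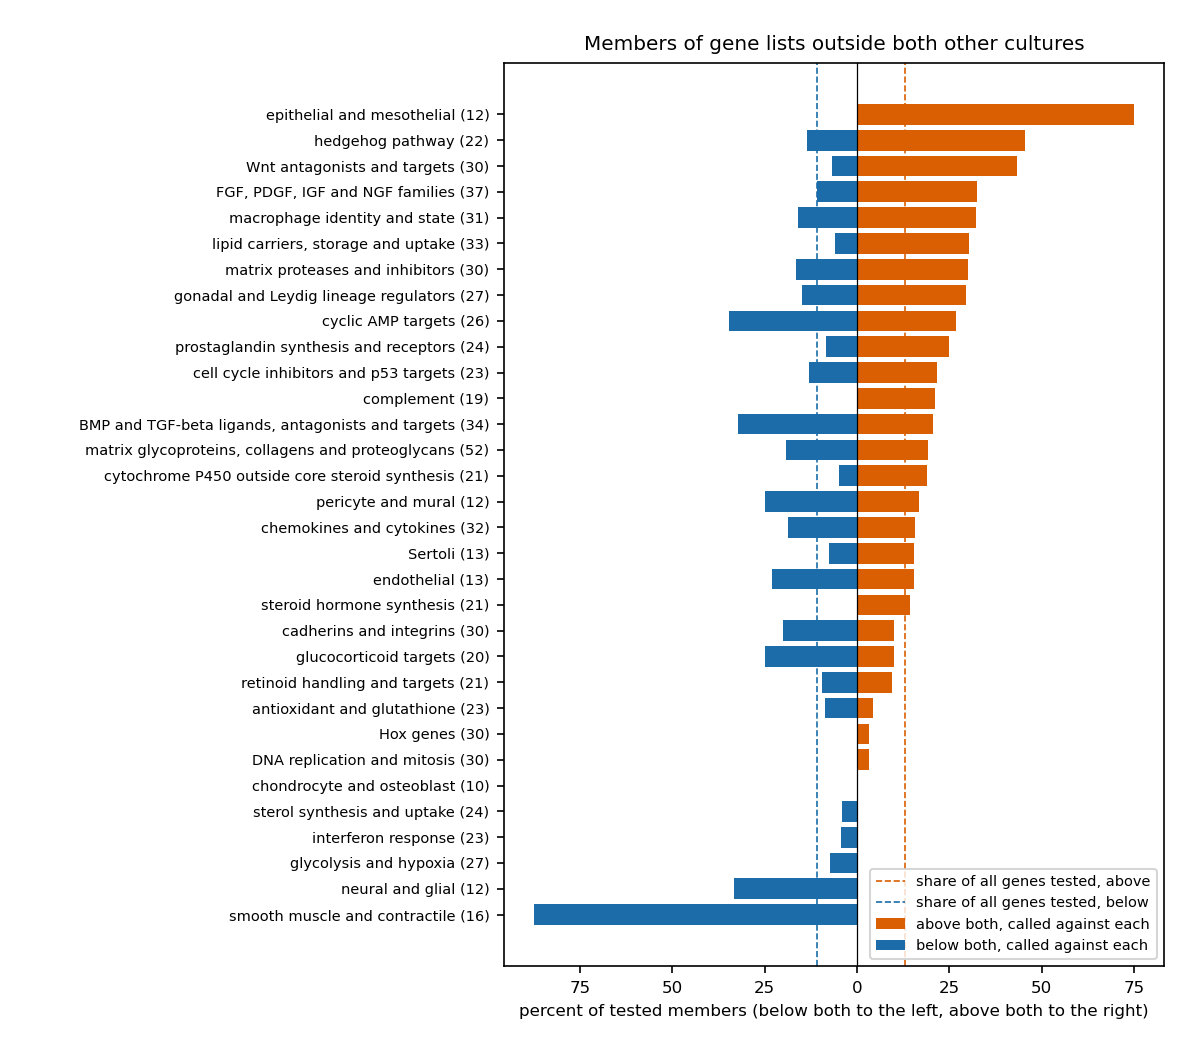
Percent of tested members of each gene list that lay above both groups and were called against each (orange, to the right of 0) or below both and called (blue, to the left), for lists of at least 10 tested genes, with the number tested in brackets. Dashed lines give the shares over all genes tested, 12.9% above and 11.0% below. Epithelial and mesothelial genes reach 75% to the right and smooth muscle genes 87.5% to the left.

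Some members lay side by side in the genome. In the gene order of the RefSeq table, 73 of the 393 placed genes at least 2-fold above both (18.6%) were next to another such gene, in 33 runs, against 28 of 320 (8.75%) in 14 runs below both. The share that random placement in this order would give was not computed. Runs included Krt7, Krt8 and Krt18, the prostaglandin receptor genes Ptgdr and Ptger2, the bradykinin receptor genes Bdkrb1 and Bdkrb2, and Lum with Kera. The longest run was 5 genes of the major urinary protein cluster, Mup22, Mup18, Mup5, Mup20 and Mup3. Near-identical neighbours such as these, Lyz1 and Lyz2, or Cd55 and Cd55b can share reads, and they are counted here as the tables give them.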

How the data were processed

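RNA sequencing libraries of 3 cell groups, 2 each, were analysed. The deposited values are estimated counts per gene, not scaled for library size. Reads were aligned with HISAT to build mm9, per the submitters' processing notes. The aligner's version, the counter, the annotation and the strand are not stated in what was used, and reads of overlapping or antisense genes may be mixed. Of each library's values, 32.4% to 32.8% had a fractional part.

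Symbols came from a RefSeq gene table of GRCm38.p6 (18179 of 18305 gene numbers matched, 126 did not), and, since that build is not mm9, no coordinates are given other than the RefSeq promoter windows, which were not matched to the reads. After rounding, edgeR 4.0.16 was run in R 4.3.3 (filterByExpr, minimum count 10 and total 15, 3724 genes removed; trimmed mean of M values; quasi-likelihood fit of all 6 libraries on group; two-sided tests, Benjamini-Hochberg adjustment over 14581 genes, threshold 0.05, prior count 0.125). The procedure was run on simulated data that had the fitted spread of these libraries, so this does not cover larger variation between cultures. CPM use the scaled library sizes. Standard errors come from the fitted weights and moderated dispersion. A group at 0 was set to a floor of 3 reads over its libraries, and 1 to 3 reads give a ratio with an exact 95% binomial interval. Both cover counting error only. A chi-square over genes, per degree of freedom, was 1.80 for the CiLC pair, 2.77 for MEF and 2.94 for LC, above sampling noise of reads alone. No pair was therefore treated as the same library sequenced again. Whether the pairs are technical repeats of a culture cannot be told from this.

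The members, the 33 gene lists and the 6 marks were chosen with earlier results of these data known. Genes were named by rule: the marks, the 12 farthest above and below both groups at 5 CPM or more, up to 3 genes each way per list, and those at the edge of the rule. Acta2, Actg2, Adgre1, Agtr2, Apcdd1, Bdkrb1, Bdkrb2, Boc, Cald1, Cd68, Cldn1, Cntn2, Col1a1, Col3a1, Csf1r, Cx3cr1, Cyp11a1, Des, Fgf10, Fgf7, Gas1, Gata4, Gli2, Gli3, Gpc3, Gpm6a, Hgf, Hsd3b1, Hspb6, Id1, Id2, Id3, Igf1, Il1r1, Itga8, Junb, Krt19, Lepr, Lrrn4, Ltbp1, Mc2r, Mrc1, Msln, Muc1, Muc16, Myl9, Mylk, Nr5a1, Pcsk1, Plin2, Pparg, Ptch1, Ptgdr, Ptger2, Ptger4, Ptgs1, Reg1, Reg3g, Rgs2, Rspo1, Scg2, Sik1, Smad7, Smo, Smtn, Star, Syn1, Tnc, Tpm1, Tpm2, Upk3b, Wnt5b and Wt1 were named after their values were seen. Alternatives were library totals, DESeq2 1.42.0, quantile normalization with limma 3.58.1, other filters and prior count, a replicate block, assumed coefficients of variation, a 4-fold threshold, leaving out each library and, added after the values were seen, marker sums without their highest gene. Some genes of the lists are not reported here.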

Additional observations from a re-analysis of the deposited data

How the results depend on the processing

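The counts above and below both groups (2909 and 2593) became 4376 and 1633 with library totals, and those also called against each group (1886 and 1598) became 2953 and 1045. With a filter of at least 5 CPM in a group, 256 genes lay 2-fold above both in place of 395. Thresholds at 4-fold left 180 above and 92 below. With an assumed coefficient of variation of 0.1, CiLC minus the mean of the others had 2858 higher and 2809 lower calls, CiLC minus MEF 2064 and 2141 in place of 3808 and 3721, and 973 genes were called above both and 833 below. With 0.4 assumed, these were 628 and 473, 407 and 268, and 185 and 93, which also were the 2-fold counts, and CiLC minus LC had 937 and 1314 calls in place of 5108 and 5187. Leaving out a library in turn gave 390 to 405 genes 2-fold above both and 301 to 330 below, 1455 to 1761 called above and 1274 to 1497 called below, and 3134 to 3613 above and 2825 to 3461 below by level, where fewer libraries have to be passed. Of 220 named gene results that were called, 15 lost the call without some library, 10 with DESeq2, 11 with quantile normalization, 6 with library totals, 5 with no filter, 24 with 0.1 assumed and 133 with 0.4 assumed, and none changed sign in these settings. Replicate numbers paired no samples: deviations of same-numbered libraries correlated at 0.034 between CiLC and MEF, -0.067 between CiLC and LC and 0.049 between MEF and LC over 11042 genes. A replicate block gave 4362 higher and 4319 lower calls and cost no named call. Genes with a few reads in a group, such as Trp63, Krt8 and Wif1, are limited by depth.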

Other observations

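Single genes known from secretory and nerve cells, picked after their values were seen, lay above both cultures. Scg2, a granin of hormone vesicles, was at 19.9 and 20.5 CPM in CiLC, 1.73 and 1.82 CPM in MEF and 0.174 and 0 CPM in LC. Syn1, which ties synaptic vesicles to the cytoskeleton, was at 62.7 and 64.1 CPM in CiLC, 9.64 and 11.9 CPM in MEF and 16.2 and 14.9 CPM in LC. Pcsk1, which cleaves prohormones, was 2.73-fold above MEF, from 3.41 and 3.04 CPM. Cntn2, an adhesion protein of axons, was at 31.1 and 29.0 CPM in CiLC, 3.11 and 2.69 CPM in MEF and 0.0771 and 0.185 CPM in LC, and Gpm6a, a neuronal membrane protein, at 27.6 CPM in each CiLC library, 2.36 and 2.76 CPM in MEF and 0.058 and 0 CPM in LC. In these genes both CiLC libraries lay above the other 4, while the neural and glial list had 0 of 12 tested members above both and 4 below, and nerve genes such as Map1b, Lingo1, Islr2 and Nos1 lay at least 2-fold below both.

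Some receptor genes, also picked after their values were seen, lay above both, and others, such as Avpr1a, Ednra, Adra1d, Hrh1 and Adora1, lay at least 2-fold below both. Agtr2, the type 2 angiotensin receptor, was at 1629 and 1553 CPM in CiLC, 226 and 199 CPM in MEF and 0.058 and 0.176 CPM in LC. Mc2r, the corticotropin receptor of the adrenal cortex, was at 3.25 and 3.75 CPM in CiLC, 0.524 and 0.468 CPM in MEF and 0.406 and 0.118 CPM in LC. Lepr, the leptin receptor, was at 86.0 and 78.8 CPM in CiLC, 1.83 and 0.978 CPM in MEF and 27.8 and 29.7 CPM in LC. Bdkrb2, a bradykinin receptor, was 5.74-fold above MEF and 7.61-fold above LC, and its neighbour Bdkrb1 14.0-fold and 2.37-fold. Il1r1, the interleukin 1 receptor, was 3.49-fold above MEF and 1.23-fold above LC. Reg1 and Reg3g, neighbouring secreted lectins of the pancreas and gut, were at 142 and 146 CPM and at 92.5 and 96.8 CPM in CiLC, 9.65-fold and 14.2-fold above MEF, and had 0 reads in LC.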
